A study of Mus musculus with 2 samples.

Results

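The BH3-only genes were examined as a family of 8 members in mouse lung cancer cells, chosen by gene symbol: *Bbc3* (Puma), *Pmaip1* (Noxa), *Bcl2l11* (Bim), *Bmf*, *Bid*, *Bad*, *Bik* and *Hrk*. All 8 were found among the 23183 gene symbols of both libraries. The cells are an immortalized line from the lung tumors of mice with a *Runx3* flox/FSF genotype, *p53* flox/flox and *K-Ras* LSL-G12D/+ alleles, a Tomato\* reporter and an Flp ERT2 transgene, in which nasal Ad-Cre (an adenovirus whose *CMV* promoter drives Cre without restriction to a cell type) switched on *K-Ras* and removed *p53* and the floxed *Runx3* allele. The KPR- library is labelled RUNX3 -/- at 0 h, and the KPRrestored library RUNX3 -/+ at 16 h. In KPRrestored cells, 4-hydroxytamoxifen (4-OHT) had activated the Flp recombinase, which deletes the *Frt-Stop-Frt* cassette that silences the FSF allele. The sample records list 1 μM 4-OHT for both libraries, although 4-OHT is the step that turns KPR- cells into KPRrestored cells. By design both lack intact *p53* and carry activated *K-Ras*, and whether the lines were single clones is not given in the sources used here. Each condition is 1 poly(A) RNA library, so no difference has a replicate check, and *Runx3*, 4-OHT and time in culture cannot be told apart.

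BH3-only proteins start the mitochondrial pathway of apoptosis. Each carries a short BH3 helix that fits into the groove of survival proteins such as Bcl2, Bcl-xL and Mcl1, and some also activate Bax and Bak directly, which then permeabilize the outer mitochondrial membrane. The cell holds each member back in its own way: *Bbc3* and *Pmaip1* are classic p53 target genes that other stress factors can also switch on, Bid is cleaved by Caspase-8, Bad is held by 14-3-3 proteins after phosphorylation, and Bim and Bmf are held by dynein light chains. The family therefore reads out many death signals at once, and the transcript level is only a part of its control.

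Values are FPKM as deposited, that is, fragments scaled to transcript length and library size, with any further normalization by the authors kept. From the steps between low FPKM values, the depth was estimated at 21.8 M (KPR-) and 22.4 M (KPRrestored) fragments. The fragments behind each gene were estimated from its longest transcript with a RefSeq counterpart. Differences are log2(FPKM + 0.005) in KPRrestored minus KPR-, and a gene is called higher or lower at 0.5 or more either way. A gene is called expressed where its FPKM averaged 1 or more over both libraries, which held for 11231 genes. The 95% intervals are exact Clopper-Pearson limits of the log2 ratio of the estimated fragments. They compare the 2 libraries, not the conditions, and cover counting error only. The level of *Runx3* was 0.348 FPKM in KPR- and 0.349 FPKM in KPRrestored, and that of *Trp53* was 2.12 and 2.17 FPKM. A value per gene does not show which allele or exon the fragments come from, and neither gene's level bears out the labels. Directions refer to the libraries as labelled. All 5 epithelial markers were expressed (summed FPKM 4881 in KPR- and 4625 in KPRrestored), as were all 3 mesenchymal markers (1812 and 1491). Of the 3 alveolar type 2 markers 0 were expressed, and *Sftpc* and *Sftpb* were listed at 0 in both libraries. Of the 3 fibroblast markers 1 was expressed, *Col1a1*, with 12.2 and 4.21 FPKM. The other 2 were low and went the other way, *Dcn* with 0.173 and 0.742 FPKM and *Pdgfra* with 0.273 and 0.363 FPKM. Of the 3 immune markers 1 was expressed, *Cd68*, and their sum was 3.08 and 6.79 FPKM, with the macrophage gene *Lyz2* at 0 in both and *Ptprc* at 0 and 0.00892 FPKM. The 2 endothelial markers summed to 0.0601 and 0.170 FPKM. The part of the fibroblast and immune markers in the differences of the BH3-only genes was not tested. In such bulk RNA, fewer cells of a type and less RNA per cell cannot be told apart.

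Transcripts of 6 of the 8 BH3-only genes were higher by 0.5 or more in KPRrestored, and 0 were lower by as much. Among all 16508 genes above 0 in either library, 19.3% were higher and 18.2% were lower by this threshold. The largest differences among the expressed members were those of *Pmaip1* and *Bbc3*, which had 2.59 and 2.53 times the FPKM of KPR-. *Bmf* and *Bid* were higher by less, *Bcl2l11* and *Bad* stayed under the threshold, and *Bik* and *Hrk* were close to the limit of detection. The median log2 difference of the 8 members was 0.76, beside -0.012 over the 16508 genes. Of the 6 expressed members, 4 were higher and 0 were lower, beside 12.1% and 9.29% of all expressed genes. The same 4 members also had counting intervals above 0. Of the 11137 expressed genes with 10 or more estimated fragments, 11.6% were higher with such an interval. The 6 members had a median of 0.63, where the 11231 genes had a median of 0.0086 and quartiles of -0.23 and 0.27.

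**Figure D1:**
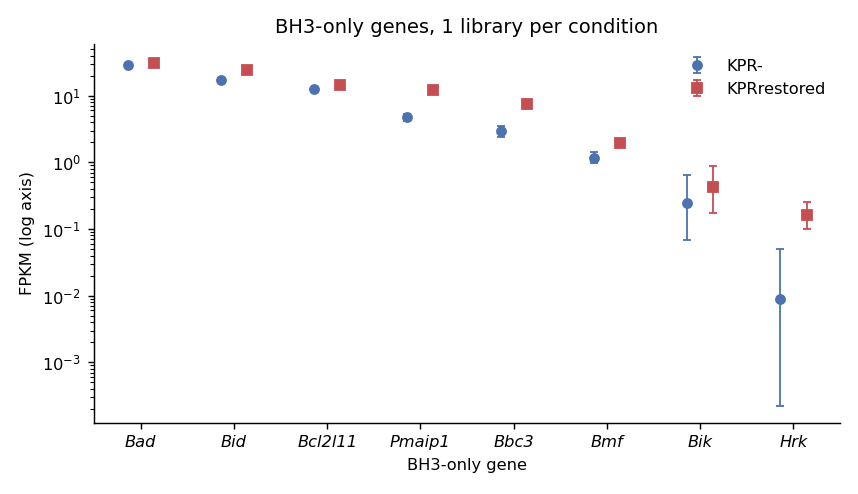
FPKM of the 8 BH3-only genes in the KPR- library (blue circles) and the KPRrestored library (red squares), on a log axis, with 95% Poisson intervals of the estimated fragments as bars. The order of the genes is the same in both libraries, the gap between them is widest for *Pmaip1*, *Bbc3* and *Hrk*, and the bars are long for *Bik* and *Hrk*.

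*Pmaip1* encodes Noxa, a small protein that mainly neutralizes Mcl1. In GRCm38 it spans 66458533 to 66465565 of chromosome 18, on the plus strand. The level was 4.73 FPKM in KPR- and 12.3 FPKM in KPRrestored, from about 260 and 691 fragments. The log2 difference was 1.37 with a counting interval of 1.16 to 1.58, and 98.6% of the expressed genes had a smaller difference. With the shortest coding transcript the fragments would be about 83 and 220, and the interval 0.998 to 1.75. *Mcl1*, its binding partner, had 44.4 and 51.3 FPKM, so the *Pmaip1* level was 10.7% of the *Mcl1* level in KPR- and 23.9% in KPRrestored.

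*Bbc3* encodes Puma, which binds all the main survival proteins. It spans 16308393 to 16318205 of chromosome 7, on the plus strand. The level was 2.92 FPKM in KPR- and 7.39 FPKM in KPRrestored, from about 102 and 266 fragments. The log2 difference was 1.34 with an interval of 1.01 to 1.69, larger than that of 98.5% of the 11231 genes. Its transcripts range in length from 405 to 1814 bases. With the shortest coding transcript the fragments would be about 12 and 32, and the interval, 0.38 to 2.47, still lay above 0.

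*Bid* encodes the link between death receptors and mitochondria, since Caspase-8 cuts the protein into its active form. It spans 120891930 to 120916853 of chromosome 6, on the minus strand. The level was 17.0 FPKM in KPR- and 24.1 FPKM in KPRrestored, from about 733 and 1067 fragments. The log2 difference of 0.504 (interval 0.37 to 0.64, or 0.16 to 0.85 with the shortest coding transcript) was only just past the threshold. It fell under 0.5 with each of the other scalings between libraries, with a pseudocount of 1 and with the trend of transcript length removed, so *Bid* is a borderline call. The 3′ part of *Bid* overlaps that of *Bcl2l13* on the other strand, with 628 of 3550 exonic bases in common. *Bcl2l13* had 12.7 and 12.9 FPKM, a log2 difference of 0.022. The kit keeps strand, but whether the counting used it is not given in the sources used here.

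*Bmf* encodes a BH3-only protein that is released from the actin-bound myosin motor upon loss of attachment. It spans 118528757 to 118549687 of chromosome 2, on the minus strand. The level was 1.17 FPKM in KPR- and 1.97 FPKM in KPRrestored, from about 113 and 195 fragments, and the log2 difference was 0.75 with an interval of 0.41 to 1.10. If its shortest coding transcript, of 3078 bases, is used instead, the interval is 0.32 to 1.19. It was thus lower in level than *Bid* in both libraries. Its log2 difference was the larger, but the counting intervals overlapped (0.41 to 1.10 beside 0.37 to 0.64 for *Bid*).

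*Bcl2l11* encodes Bim, a strong activator of Bax and Bak whose protein is degraded after phosphorylation by ERK. It spans 128126038 to 128162547 of chromosome 2, on the plus strand. The level was 12.5 FPKM in KPR- and 14.6 FPKM in KPRrestored, from about 1316 and 1579 fragments. The log2 difference was 0.22, under the threshold. The longest transcript, of 5036 bases, gave an interval of 0.12 to 0.33. The shortest coding one, of 672 bases, gave -0.13 to 0.58. *Bad*, which binds Bcl2, Bcl-xL and Bcl-w, spans 6941861 to 6951899 of chromosome 19, on the plus strand. The level was 29.2 FPKM in KPR- and 30.7 FPKM in KPRrestored, from about 792 and 855 fragments. The log2 difference was 0.073 with an interval of -0.069 to 0.21, so a difference between the libraries was not detectable beyond counting error. Its 5′ part shares 524 of 2558 exonic bases with *Gpr137* on the other strand, which had 23.0 and 21.5 FPKM.

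*Bik*, which encodes a BH3-only protein of the endoplasmic reticulum and mitochondria, spans 83526862 to 83544634 of chromosome 15, on the plus strand. The level was 0.248 FPKM in KPR- and 0.426 FPKM in KPRrestored. These values correspond to about 4 and 7 fragments (3.97 and 6.98 before rounding). The log2 difference was 0.77, but its counting interval ran from -1.21 to 2.99, so *Bik* was past the threshold without a detectable difference at this depth.

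*Hrk*, known mainly from dying neurons, spans 118164648 to 118189478 of chromosome 5, on the plus strand. The level was 0.00887 FPKM in KPR- and 0.163 FPKM in KPRrestored, from about 1 and 19 fragments over a transcript of 5382 bases. The ratio of the FPKM values was 18.4, with a counting interval from 2.94 to 769. The interval lay above 0 on the log2 scale, and the log2 difference of 3.60 was the largest of the family. It rests on a single fragment in KPR- and came to 1.27 with a pseudocount of 0.1 and to 0.21 with a pseudocount of 1. In both libraries *Hrk* was the lowest member.

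**Figure D2:**
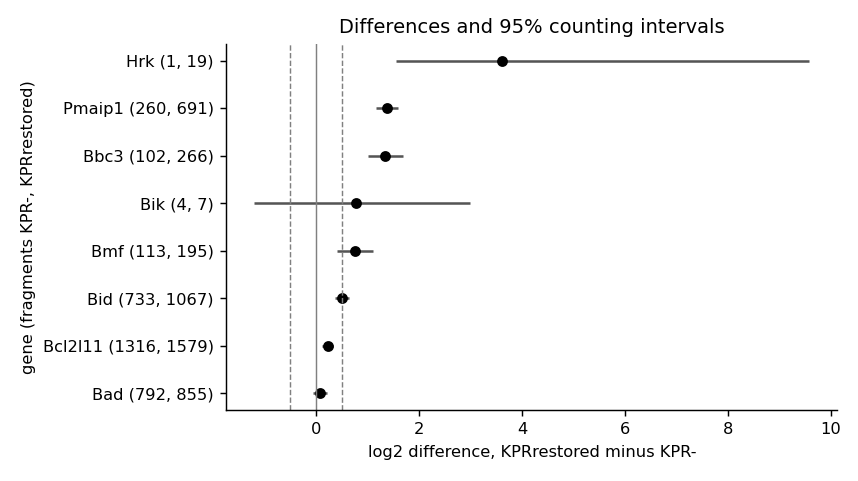
Log2 difference of each BH3-only gene, KPRrestored minus KPR- (points), with 95% counting intervals (lines) and, in brackets, the estimated fragments in KPR- and KPRrestored. Dashed lines mark 0.5 either way. All 8 points lie right of 0, 6 of the 8 intervals lie above 0, and those of *Bik* and *Bad* include 0.

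The order of the levels was the same in both libraries, from *Bad* through *Bid*, *Bcl2l11*, *Pmaip1*, *Bbc3*, *Bmf* and *Bik* to *Hrk*. With fragments from the longest transcripts, the Poisson intervals of neighbours in this order did not overlap in KPR-. In KPRrestored, those of *Bik* (0.171 to 0.877 FPKM) and *Hrk* (0.0984 to 0.255 FPKM) did. Shorter transcripts give fewer fragments, such as about 12 instead of 102 for *Bbc3* in KPR-, and thus wider intervals. Intervals of the levels were not computed for these, so whether neighbours stay apart with shorter transcripts is not known. The levels of *Bcl2l11* and *Pmaip1* lay closer together in KPRrestored: *Bcl2l11* was 2.64 times as high as *Pmaip1* in KPR- and 1.19 times as high in KPRrestored.

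The summed FPKM of the family was 67.8 in KPR- and 91.6 in KPRrestored, a difference of 23.9 FPKM and a log2 ratio of 0.44. *Pmaip1* added 7.53 FPKM to this difference, *Bid* 7.10 and *Bbc3* 4.47, and these 3 genes together made up 80.1% of it. *Bad*, the most abundant member, made up 43.1% of the family sum in KPR- and 33.5% in KPRrestored. The share of *Bbc3* and *Pmaip1* went from 11.3% to 21.4%.

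**Figure D3:**
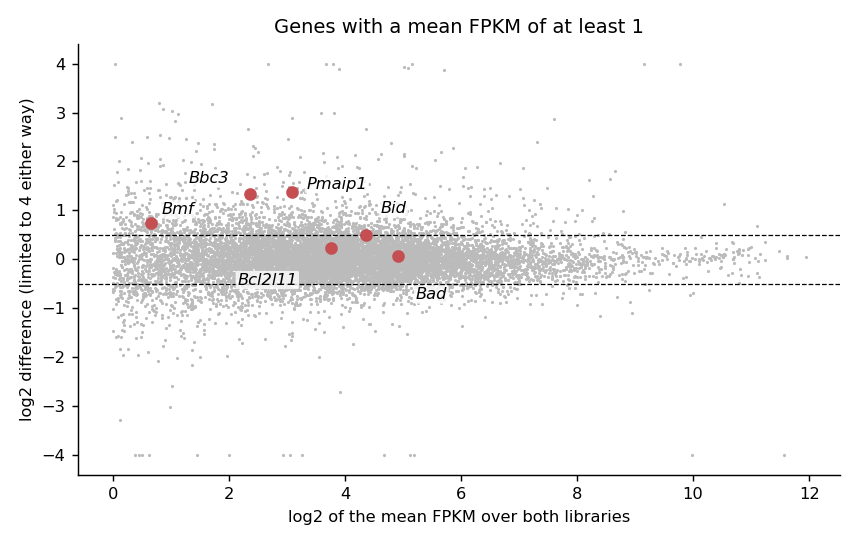
Log2 difference (limited to 4 either way) against the log2 of the mean FPKM for the 11231 expressed genes (grey), with the 6 expressed BH3-only genes in red. *Pmaip1* and *Bbc3* lie near the upper edge of the cloud at their level, *Bmf* lies above the dashed line at 0.5, *Bid* sits on it, and *Bcl2l11* and *Bad* lie within the body.

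The start sites of the family were compared next, since a shared promoter feature would not have been used to choose the members. RefSeq promoter windows (GRCm38.p6) were at hand for 6 of the 8 members, with 12 alternative starts among them, and the 250 bases before each start were read. No window was at hand for *Pmaip1* or *Bik*, so their starts were not read. These 12 windows had a median GC content of 64.2% and a median of 21 CpG, beside 52.4% and 6 CpG over 32841 windows of all genes. GC content ranged from 54% at starts of *Bmf* to 81.6% at a start of *Bbc3*, and the CpG count from 3 to 37 at starts of the same genes. The GC box GGGCGG, on either strand, was in 8 of the 12 windows, which belong to 5 members, and in 32.7% of all windows. Windows of the same gene are not independent, and some of *Bbc3* overlap. No share over windows of similar GC content was computed, so this difference cannot be told apart from that in GC content. Among the 6 members with windows, *Bmf* was the one without it.

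For 3 of the members the windows with matches to RUNX or FOXO letters are shown, because *Runx3* is the gene the cells were built to restore and because FoxO factors are known activators of *Bbc3* and *Bcl2l11*. The letters searched on both strands were TGTGGT and TGCGGT for RUNX and TGTTTAC for FOXO, and capitals mark the matches. They were found in 14.05%, 5.10% and 3.17% of all windows. The *Bbc3* window, chr7:16310011-16310260 (plus strand), lies within the gene outside annotated exons and holds a FOXO match 167 bases before that start. The *Bcl2l11* window, chr2:128125788-128126037 (plus strand), lies just before the gene and holds a FOXO match at 227 bases and a TGCGGT match at 30 bases before the start, both on the other strand. The *Bmf* window, chr2:118547600-118547849 (minus strand), lies within the gene outside annotated exons and holds TGTGGT 3 times, at 167, 72 and 67 bases before the start, the last 2 on the other strand and sharing 1 base.
Bbc3: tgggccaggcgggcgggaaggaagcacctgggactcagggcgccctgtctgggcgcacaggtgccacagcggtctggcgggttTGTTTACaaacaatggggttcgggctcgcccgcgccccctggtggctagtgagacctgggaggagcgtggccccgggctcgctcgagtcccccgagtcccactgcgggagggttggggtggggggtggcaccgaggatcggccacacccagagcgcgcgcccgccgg
Bcl2l11: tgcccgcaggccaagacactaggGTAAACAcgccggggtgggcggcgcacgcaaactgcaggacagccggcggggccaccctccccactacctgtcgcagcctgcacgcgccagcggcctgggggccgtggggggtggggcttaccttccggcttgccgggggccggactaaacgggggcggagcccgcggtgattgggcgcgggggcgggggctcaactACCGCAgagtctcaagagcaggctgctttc
Bmf: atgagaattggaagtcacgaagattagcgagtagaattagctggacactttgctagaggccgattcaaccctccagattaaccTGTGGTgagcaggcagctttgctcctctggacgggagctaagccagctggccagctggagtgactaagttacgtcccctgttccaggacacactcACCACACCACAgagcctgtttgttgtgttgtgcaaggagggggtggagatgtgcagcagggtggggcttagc

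TGTGGT was in 1 of the 12 member windows, so the members with windows did not hold it more often than the 14.05% of all windows. Of the 32841 windows, 37 (0.113%) held it 3 or more times, a count chosen after the *Bmf* window was seen. The other 2 windows of *Bmf* held 0 matches to it, and the values per gene do not show which start was used. The second window of *Bcl2l11* also held TGCGGT. The ATF4 and CHOP composite element TGATGNAAT, found in 0.816% of all windows, and the AP-1 letters TGANTCA, found in 6.75%, were in 0 of the 12. The 12 windows do not cover *Pmaip1* or *Bik*. These matches are letters in a window and were not measured as binding.

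Next come the genes of the proteins that the BH3-only family binds. Of the 8 survival genes, 4 were expressed, and of these 0 were higher and 1 was lower by the threshold, with a median log2 difference of 0.10. The lower gene was *Bcl2*, with 7.84 FPKM in KPR- and 4.93 FPKM in KPRrestored, a log2 difference of -0.67. *Bcl2l1*, which encodes Bcl-xL and was the most abundant, had 65.7 and 70.3 FPKM. The summed FPKM of the survival genes was 129 and 139, so the BH3-only sum was 52.3% of it in KPR- and 65.9% in KPRrestored. Among the 3 effectors that open the mitochondrial membrane, 0 passed the threshold. *Bax* had 96.9 and 122 FPKM, a log2 difference of 0.33 with an interval of 0.23 to 0.43.

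Of the 3 proteins with a BH3 region that act mainly in mitophagy and autophagy, *Bnip3*, a hypoxia-induced mitophagy receptor, was higher by the threshold, with 48.5 and 75.8 FPKM and a log2 difference of 0.65. The median log2 difference of these 3 genes was 0.40, so a shift upward was not limited to the BH3-only family. Of the 9 partners that hold Bim, Bmf or Bad in check, 0 passed the threshold, and *Ywhae*, encoding a 14-3-3 protein and the most abundant by the mean of both libraries, had 410 and 322 FPKM. The same was true of the 10 kinases that act on BH3-only proteins, among which *Mapk3* (ERK1) had the highest mean, with 111 and 131 FPKM.

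Of the 12 genes of transcription factors known to act on BH3-only genes, 9 were expressed. Of these 9, 6 were higher by the threshold and 0 were lower, beside the 12.1% and 9.29% of all expressed genes, with a median log2 difference of 0.53. The list was written with earlier results of these data known, so these counts describe it and are no test. The stress factors stood first. *Atf3* had 2.69 FPKM in KPR- and 21.3 FPKM in KPRrestored, *Ddit3* (CHOP) 12.3 and 52.8 FPKM, and *Atf4* 145 and 446 FPKM, which gave log2 differences of 2.98, 2.11 and 1.62. *Jun* had 13.6 and 29.3 FPKM, a log2 difference of 1.11. *Foxo1* and *Foxo3* were just past the threshold, with log2 differences of 0.51 and 0.53 from 5.97 and 5.78 FPKM in KPR-. The p53 relatives *Trp63* and *Trp73* were listed at 0 in both libraries. Whether any of these factors had a part in the levels of the BH3-only genes was not tested.

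Of the 9 genes of the death machinery, all of them expressed, 1 was higher and 2 were lower by the threshold, with a median of -0.13. Among all expressed genes, 12.1% were higher and 9.29% were lower. *Casp8*, whose protease activates Bid, had 35.6 FPKM in KPR- and 53.1 FPKM in KPRrestored, a log2 difference of 0.58. *Parp1*, which encodes a DNA repair enzyme, had 59.6 and 36.1 FPKM, a log2 difference of -0.72.

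**Figure D4:**
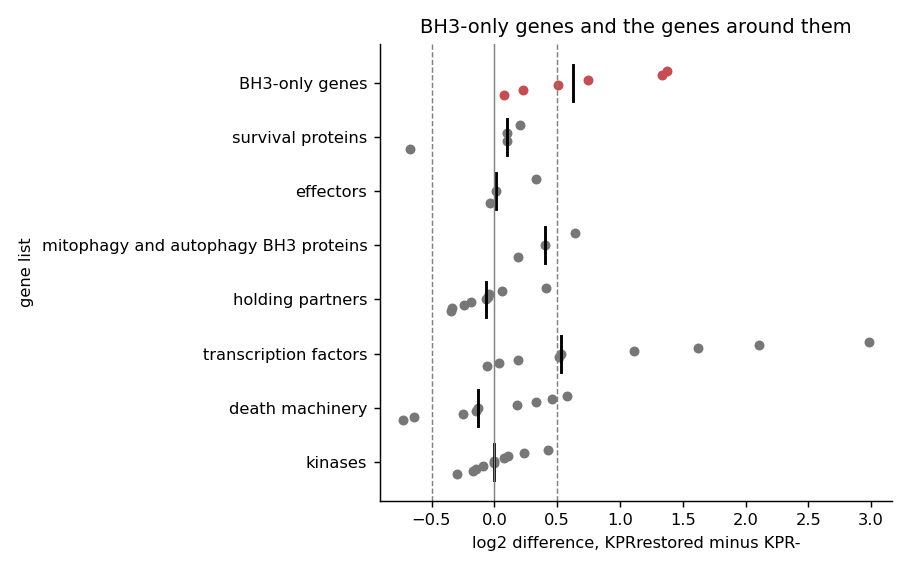
Log2 difference of each expressed gene in the BH3-only family (red) and in 7 lists of genes around it (grey), with the median of each as a vertical line and dashed lines at 0.5 either way. The BH3-only genes and the transcription factors have medians past 0.5, and the mitophagy and autophagy BH3 genes have a median of 0.40. The survival genes, effectors, holding partners, death machinery and kinases have medians between -0.13 and 0.10.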

How the data were processed

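Poly(A) RNA of 1 KPR- and 1 KPRrestored library was sequenced on a directional kit. The authors trimmed the reads, mapped them using TopHat to mm10 (per the labels) and deposited FPKM values estimated using Cufflinks. The paper also names a geometric normalization of read counts using EdgeR. Whether the deposited FPKM include it is not given. If they do, the depth fitted below is the scale of these values and need not be the number of sequenced fragments. Tool versions and the gene annotation are not given in the sources used here. From the deposited FPKM, log2(FPKM + 0.005) was compared between the libraries with a threshold of 0.5. The pseudocount is that of the study's own table of gene values. With 1 library per group, no p-value was computed.

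Depth was fitted to the FPKM steps of genes with a single transcript of at least 600 bases in GENCODE M21 (GRCm38, the build of mm10), 3792 in all, with a mean fragment length of 211 bases. Of their values at 0.5 to 5.5 estimated fragments, 80.4% in KPR- and 82.7% in KPRrestored were whole to within 0.1 (20% by chance). Fragments of genes with several transcripts are upper estimates. Of the 23183 symbols, 22148 matched GENCODE directly and 649 through a synonym. The fit and the intervals were tested on simulated libraries in which each gene had a single known length. That test could not cover the choice among transcripts of different lengths, which every member has. The members, the 7 lists (54 genes), the thresholds and the motifs were chosen with earlier results of these data known. Genes named were the members, the expressed genes of each list past the threshold (FPKM averaging 1 or more), the most abundant gene of each list, *Runx3* and *Trp53*, except that some genes of the death machinery list are not reported here by name. *Mcl1*, *Trp63*, *Trp73*, *Bcl2l10*, *Bcl2l13*, *Gpr137* and the cell type markers given by name were added after their values were seen. Alternatives were other pseudocounts, scalings, thresholds, filters and transcript lengths, and, added after the values were seen, the removal of the transcript length trend and leaving out members. Python 3.11.15, numpy 2.4.6, pandas 2.3.3 and scipy 1.17.1 were used.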

Additional observations from a re-analysis of the deposited data

How the results depend on the processing

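The count of BH3-only genes that were higher was 6 as reported and 5 under each scaling, with the length trend removed, with a counting interval above 0 also required, or without *Bik*, the member under 20 fragments. It was 4 among expressed members, 3 with a threshold of 1 (*Pmaip1*, *Bbc3* and *Hrk*) and 2 with a pseudocount of 1 (*Pmaip1* and *Bbc3*). With that pseudocount *Bid* came to 0.480, *Bmf* to 0.45, *Hrk* to 0.21 and *Bik* to 0.19. The count of lower members was 0 throughout. The median of 0.76 came to 0.65 and 0.33 with pseudocounts of 0.1 and 1, 0.751 with the same FPKM total (TPM), 0.715 with the same upper quartile, 0.748 when centred on the median gene, 0.626 over expressed members, 0.749 with the length trend removed and 0.748 without *Hrk*. The log2 ratio of the family sum, 0.435, was 0.429 as TPM and 0.660 without *Bad*. Of the 48 values of single members under alternatives that can move them, 46 stayed within their counting intervals and the other 2 were those of *Hrk* with larger pseudocounts. The largest shift from a scaling, -0.042 with the upper quartile, was smaller than the reach of every interval. Values under the scalings could therefore not leave theirs. With the length trend removed, *Bad* came to -0.019 and *Bid* to 0.45. Over the 54 genes of the 7 lists, those under the expression limit included, 9 were higher and 3 lower. These counts were 5 and 0 with a threshold of 1, and 6 and 2 with a pseudocount of 1. The 9 and the 5 include *Bcl2l10*, which is not expressed and had about 1 and 3 fragments. Of the 16508 genes above 0 in either library, 19.3% were higher and 18.2% lower with the threshold of 0.5. The 54 genes include 3 survival genes and 2 transcription factors at 0 in both libraries, whereas the 16508 exclude such genes. The list counts and these shares are thus not on the same basis, and no conclusion on frequency follows. Among expressed genes, 6 of 9 transcription factors, 1 of 3 mitophagy and autophagy genes and 1 of 9 death machinery genes were higher. In the other lists 0 were, beside 12.1% of all expressed genes. No share over all genes was computed with a threshold of 1 or a pseudocount of 1. The counts of members and list genes under those settings therefore have no background beside them. No paired analysis was possible because each condition has 1 library. Depth limits *Bik* and *Hrk*, at 11 and 20 fragments over both libraries.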
